A study of Mus musculus with 3 samples.

Results

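The 7 genes described here are abundant long noncoding RNAs of the mouse: *Malat1*, *Neat1*, *Gas5*, *Snhg1*, *Snhg5*, *Snhg12* and *Tug1*. They were chosen by gene symbol, with earlier results of these data known. Each of the 7 had 1 row among the 24346 gene symbols of the deposited expression table. The cells were lung endothelial cells (ECs) of adult wild type C57BL/6J mice, freshly isolated and purified by FACS. The methods of the study give male mice of 6 to 8 weeks, an antibody against VE-cadherin injected before tissue collection, and staining for CD31, CD45 and Podoplanin. The paper names CD31 for sorting the organs of the bulk libraries. It states a gate without CD45 and Podoplanin for kidney cells only. The 3 libraries, S38, S44 and S52, are the only group, so no condition can be compared with another, and nothing in the labels says whether they came from separate mice. Values are FPKM, fragments scaled to transcript length and to the number of mapped fragments. Between genes they also depend on the transcript length assumed and on how well poly(A) selection captured each RNA.

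*Malat1* and *Neat1* are nuclear RNAs that neighbour each other on chromosome 19. *Malat1* gathers in nuclear speckles, where splicing factors are stored, and *Neat1* is the scaffold of paraspeckles, bodies built from RNA-binding proteins around its long form. *Gas5*, *Snhg1*, *Snhg5* and *Snhg12* are host genes: their introns carry small nucleolar RNAs (snoRNAs) that guide the chemical modification of ribosomal RNA, while the spliced exons leave the nucleus, are translated to little effect and are removed by nonsense-mediated decay. *Tug1* is a long noncoding RNA found in the nucleus and the cytoplasm and known for its association with Polycomb proteins.

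Depth, estimated from the low values, was about 37800000 fragments for S38, 39500000 for S44 and 34250000 for S52. A transcript of 2000 bp with 3 fragments would then stand at 0.0397, 0.038 and 0.0438 FPKM, far below all 7 RNAs. Depending on the transcript length assumed, between 178 and 628 fragments stood behind each *Gas5* value, and there the spread between libraries was of the same order as counting error. The labelled cell type was seen in the markers: 10 of 10 endothelial markers exceeded 10 FPKM in the mean, with a summed level of 6291 to 7058 FPKM. S52 stood apart in markers of other cells. The 5 platelet markers summed to 1709 FPKM in S38, 1357 in S44 and 40.2 in S52, the 5 alveolar type 2 markers to 3839, 3218 and 766, and the 5 airway markers to 2955, 2506 and 545. None of these defining markers was at 0 in any library. In bulk RNA, fewer cells of a type and less RNA per cell cannot be told apart.

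*Snhg1* was the most abundant of the 7, at 274 FPKM in S38, 279 in S44 and 382 in S52 (312 ± 61.1, SD, n = 3). *Malat1* followed with 87.4, 94.5 and 55.4 FPKM in the same order (79.1 ± 20.8). The ranges of these RNAs did not overlap, so *Snhg1* was above *Malat1* beyond the spread between libraries. *Neat1* came next, at 77.2, 46.7 and 21.9 FPKM (48.6 ± 27.7). *Snhg12* measured 32.5, 31.1 and 52.4 FPKM (38.7 ± 11.9). *Gas5* was steady at 30, 32.8 and 29.5 FPKM (30.7 ± 1.78). Below it, *Snhg5* measured 24.0, 17.4 and 29.9 FPKM (23.8 ± 6.27). *Tug1* was the lowest by mean and the least variable, with 19.6, 20.4 and 20.6 FPKM (20.2 ± 0.509). From *Malat1* downwards each neighbouring pair had overlapping ranges, and only *Malat1* above *Neat1* held in 3 of 3 libraries, the other 4 pairs in 2 of 3. The order by mean is therefore a description below *Snhg1*.

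**Figure D1:**
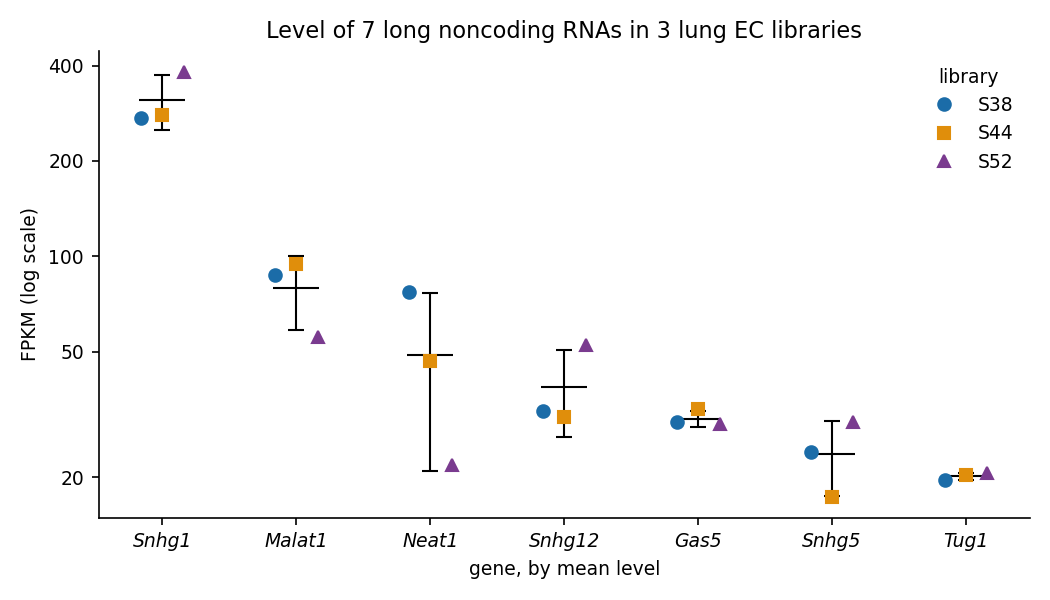
FPKM of each RNA (log axis) in libraries S38, S44 and S52, with the mean as a horizontal bar and the SD of 3 libraries as error bars. *Snhg1* lies at 274 FPKM or above in every library, *Neat1* spreads most (77.2 to 21.9 FPKM) and *Tug1* least (19.6 to 20.6 FPKM).

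Summed over the 7 genes, the level was 544 FPKM in S38, 522 in S44 and 592 in S52 (553 ± 35.7, n = 3). The sum thus varied little while its parts differed between libraries in opposite directions. *Malat1* and *Neat1* together gave 165, 141 and 77.3 FPKM. The 4 snoRNA hosts together gave 360, 360 and 494 FPKM. The nuclear pair reached 0.457 of the host sum in S38, 0.392 of it in S44 and 0.156 of it in S52 (ratio 0.335 ± 0.158). Because it is formed within a library, this ratio does not depend on how the columns were scaled. Its mean was 0.424 without S52.

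The table holds 2064 genes that RefSeq classes as long noncoding, of which 310 reached a mean of 1 FPKM, the threshold used here for detection, with a median of 2.74 FPKM. The 7 RNAs lay between rank 1 and rank 27 of these. *Snhg1* ranked 1, *Malat1* 8, *Neat1* 10, *Snhg12* 15, *Gas5* 18, *Snhg5* 25 and *Tug1* 27. First place was not secure, since *AW112010* had 303, 451 and 133 FPKM and exceeded *Snhg1* in S38 and S44. The other genes among the 10 highest were *Fendrr* (131 ± 17.5 FPKM), a regulator of lung and heart mesoderm, *1500012F01Rik* (108 ± 40.5), which RefSeq now names *Zfas1*, another snoRNA host, *2810025M15Rik* (89.0 ± 3.09), *Bvht* (84.7 ± 14.3), known from cardiac commitment, *2410006H16Rik* (79.6 ± 23.7) and *Hotairm1* (56.7 ± 15.1), from the HoxA cluster. The 7 RNAs made up 17.1% of the FPKM of all long noncoding genes in S38, 15.9% in S44 and 20.7% in S52, of which *Snhg1* alone held 8.58%, 8.51% and 13.4%.

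**Figure D2:**
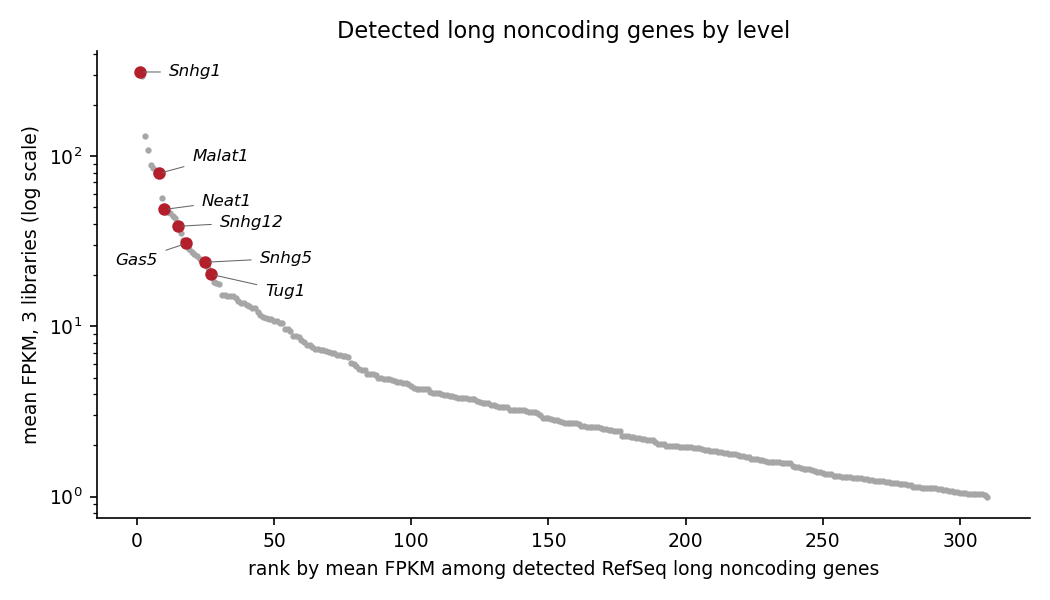
Mean FPKM over 3 libraries (log axis) of the 310 detected RefSeq long noncoding genes, by rank (x axis), with the 7 RNAs in red. All 7 lie in the steep left part of the curve, between rank 1 and rank 27.

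Of all 11770 detected genes, 20.1% had a highest library more than 2-fold above the lowest. Among the 7 RNAs 1 did so, *Neat1*, whose level differed 3.53-fold between S38 and S52. The folds of the others were 1.05 for *Tug1*, 1.11 for *Gas5*, 1.4 for *Snhg1*, 1.68 for *Snhg12*, 1.71 for *Malat1* and 1.72 for *Snhg5*. Without S52 none of the 7 reached 2-fold. S52 was the lowest library for 46.3% of the detected genes and the highest for 33.9%. It was the lowest for *Malat1*, *Neat1* and *Gas5* and the highest for *Snhg1*, *Snhg5*, *Snhg12* and *Tug1*. For *Gas5* and *Tug1* the libraries were so close that another scaling changed which was lowest or highest.

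*Malat1* and *Neat1* differ from most transcripts at the 3′ end, which is cut by RNase P in front of a tRNA-like RNA and is not given a poly(A) tail. Instead a pair of U-rich stretches and an A-rich tract, encoded in the genome, fold into a triple helix that protects the end. The letters below show how far the ends of these neighbouring genes share that element. They are the last 120 bases of each RNA, from GENCODE M21 (GRCm38, the build also called mm10), on the minus strand of chromosome 19 at chr19:5795982-5796101 for *Malat1* and chr19:5824708-5824827 for *Neat1*. Capitals mark stretches of at least 8 letters found in both.
Malat1 end: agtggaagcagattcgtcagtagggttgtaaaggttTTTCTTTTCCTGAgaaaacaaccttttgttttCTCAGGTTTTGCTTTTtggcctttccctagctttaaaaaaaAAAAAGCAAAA
Neat1 end: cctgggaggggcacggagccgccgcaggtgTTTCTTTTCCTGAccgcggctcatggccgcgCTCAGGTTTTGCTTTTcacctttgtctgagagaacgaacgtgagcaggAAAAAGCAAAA

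The shared stretches were 13, 16 and 11 letters long and stood in the same order in both RNAs, the last of them at the very end. Between them the sequences differed, and GC content was 35.0% for the *Malat1* end and 56.7% for the *Neat1* end. Among the last 120 bases of 15653 GENCODE long noncoding transcripts, the 13-letter stretch and the 16-letter stretch each occurred in 1, the long *Neat1* transcript itself (0.00639%), and the 11-letter A-rich stretch in 6 (0.0383%). The *Malat1* transcript of GENCODE runs on past the cleavage point and was therefore not among these. The small RNAs released downstream are mascRNA (RefSeq, chr19:5795924-5795981) and the RNA that GENCODE lists as *Gm27702* directly after *Neat1* (chr19:5824652-5824707). They are shown with the same marking.
mascRNA: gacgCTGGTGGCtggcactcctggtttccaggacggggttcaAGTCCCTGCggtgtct
Gm27702: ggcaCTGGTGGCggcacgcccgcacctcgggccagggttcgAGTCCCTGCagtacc

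These RNAs of 58 and 56 bases share stretches of 8 and 9 letters, near the start and in the 3′ part. Neither has a row in the table. For the main RNAs the missing tail matters to the measurement, because the libraries were made from poly(A)-selected RNA: what was captured depends on the encoded A-rich tract, on other A-rich stretches, or on a polyadenylated short form, and these cannot be told apart.

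*Malat1* lies at chr19:5795690-5802672 on the minus strand, and its longest GENCODE transcript is a single exon of 6983 bases. *Neat1* lies at chr19:5824708-5845478, also on the minus strand, with a single exon of 20771 bases as its longest transcript and spliced or shorter forms beside it. The deposited table has 1 value per gene, so the short and long forms of *Neat1* cannot be separated. Values of *Neat1* were written with up to 9 significant digits and those of *Tug1* with up to 7, where most genes have at most 6. Such longer values were found for 59.2% of 7265 genes with several curated RefSeq transcripts and for 0.937% of 9068 genes with 1, and whether they are sums of transcript estimates is not given in the sources used here.

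*Neat1* was the member that varied most. On the log2(FPKM + 1) scale, *Neat1* in S52 differed from S38 by -1.77 and from S44 by -1.06. *Malat1* differed by -0.65 and -0.76. The median over all detected genes was -0.08 and -0.06 for the same pairs of libraries. Between S44 and S38 their signs were opposite: *Neat1* differed by -0.71 and *Malat1* by 0.11. As a result *Malat1* was 1.13 times as high as *Neat1* in S38, 2.02 times in S44 and 2.53 times in S52. Rescaling the columns to the same sum over all genes gave *Neat1* a 4.34-fold and *Malat1* a 1.94-fold difference between libraries, with S52 still the lowest for both.

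The levels of *Neat1* and *Malat1* were lowest in the library in which alveolar type 2, airway and platelet markers were lowest. All 5 alveolar type 2 markers, all 5 airway markers and all 5 platelet markers had their lowest value in S52. Their median differences between S52 and S38 were -2.36, -1.80 and -4.06 on the log2(FPKM + 1) scale, against 0.09 for the endothelial markers. Single endothelial markers differed in both directions, with 3 of 10 lowest and 3 of 10 highest in S52. *Kdr* measured 380, 360 and 237 FPKM and *Emcn* 156, 181 and 267 FPKM, and the most variable, *Erg*, differed 1.97-fold. Among the defining genes, *Sftpc*, the surfactant protein of alveolar type 2 cells, measured 3333 FPKM in S38, 2862 in S44 and 658 in S52. *Scgb1a1*, the club cell secretory protein, measured 2669, 2212 and 378 FPKM. Erythroid markers were also lowest in S52 in 4 of 4 and leukocyte markers in 3 of the 4 detected. Fibroblast markers were so in 2 of 5, while S52 was the lowest library for 46.3% of all detected genes. Mural markers were lowest in S52 in 0 of 5 and highest there in 3 of 5. The part of other cells in the *Neat1* and *Malat1* values was not tested.

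**Figure D3:**
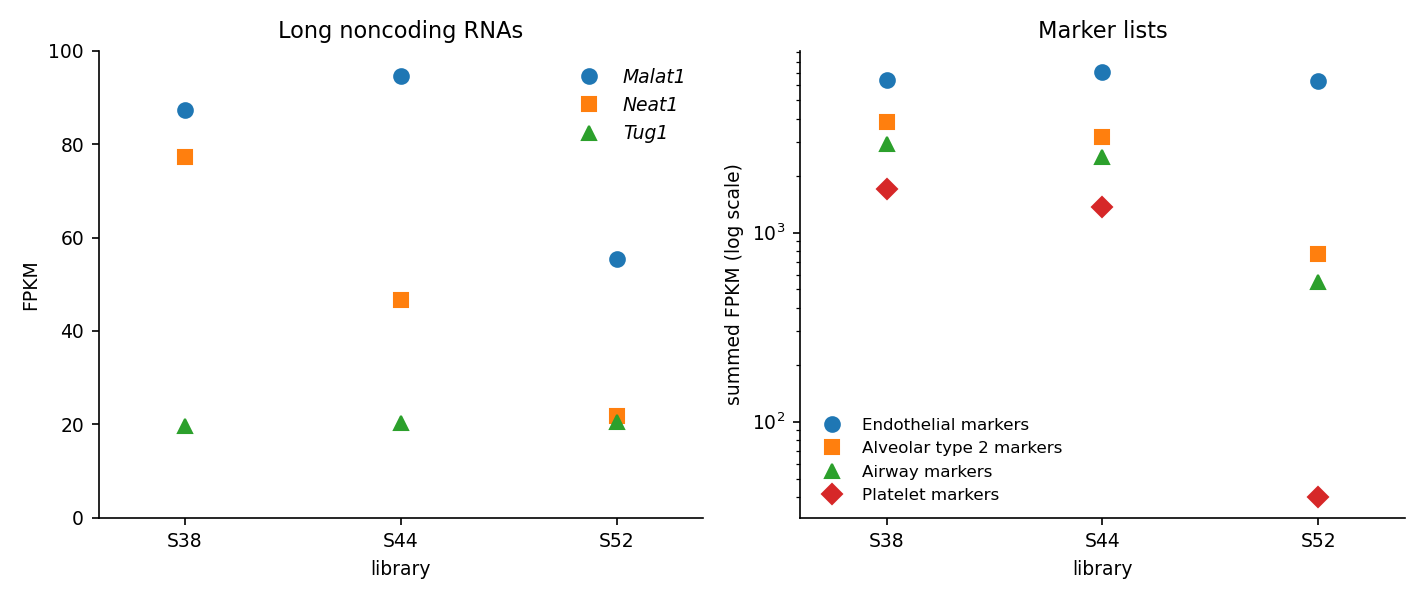
Left, FPKM of *Malat1*, *Neat1* and *Tug1* in each library. Right, summed FPKM (log axis) of 10 endothelial, 5 alveolar type 2, 5 airway and 5 platelet markers. *Malat1*, *Neat1* and the 3 lists of other cells are lowest in S52. *Tug1* (19.6 to 20.6 FPKM) and the endothelial sum (6291 to 7058 FPKM) differ less, and single endothelial markers differ up to 1.97-fold.

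Likeness was measured by the largest difference in log2(FPKM + 1) between a gene and the member over the 3 libraries, the smallest being the nearest. By this measure the nearest gene to *Neat1* was *Cxcl15*, a chemokine of the lung epithelium, with 87.6, 49.0 and 19.3 FPKM and a difference of 0.18. The next was *Wfdc2*, a secreted protein of epithelia, with 81.6, 61.8 and 20.3 FPKM (0.397). *Malat1* lay nearest to *Tln1*, which links integrins to actin, with 89.8, 92.2 and 52.7 FPKM (0.07), and to *Sec61g*, a subunit of the translocon, with 82.5, 90.7 and 58.9 FPKM (0.088). These are likenesses over 3 libraries only.

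Listed genes for proteins of the bodies around these RNAs were measured as RNA, and the proteins themselves were not measured. All 12 paraspeckle genes measured had a mean above 10 FPKM, with a median of 26 FPKM, where 25.7% of all genes reached that level. *Hnrnpk* was the highest at 262 FPKM and *Rbm14*, needed for paraspeckle assembly, the lowest at 11 FPKM. *Sfpq* and *Nono*, core proteins that bind *Neat1*, measured 77.3 and 96.5 FPKM. None of the 12 differed more than 2-fold between libraries. Only 8.74% of all genes of at least 10 FPKM did so, and with 12 genes this is no clear difference. The most variable, *Nudt21*, differed 1.42-fold with its lowest value in S52. Their median difference between S52 and S38 was near 0, as was that of all detected genes (-0.08), where *Neat1* had -1.77.

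The same held for nuclear speckles. All 10 genes exceeded 10 FPKM, from *Srsf1*, a splicing factor that *Malat1* binds, at 29.6 FPKM and the most variable at 1.29-fold, to *Srsf5* at 288 FPKM. *Srsf1* was lowest in S52, at 25.6 FPKM against 32.9 in S38 and 30.3 in S44. Of the 13 genes for RNase P and 3′ end processing, 12 were detected, against 48.3% of all genes. The median over all 13 was 8.14 FPKM. *Rpp21*, an RNase P subunit, led with 34.6 FPKM, *Rpp38* varied most at 1.66-fold, and *Rpp25* was listed at 0 in all 3 libraries. *Elac2*, which cuts tRNA-like 3′ ends, measured 5.23 FPKM, and *Mettl16*, which binds the *Malat1* triple helix, 6.87 FPKM.

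The host genes are small. *Gas5* lies on the plus strand at chr1:161034422-161038539 and *Snhg1* on the plus strand at chr19:8723475-8726443. *Snhg5* lies on the minus strand at chr9:88521050-88522929 and *Snhg12* on the plus strand at chr4:132308623-132311024. GENCODE gives them 25, 18, 6 and 10 transcripts, and the longest basic transcripts have 665, 709, 1004 and 1416 bases. Such hosts are known to begin with a run of pyrimidines, the mark of 5′ TOP genes, whose translation follows growth signals. The RefSeq windows below run from 20 bases before the annotated start to 40 bases after it, and capitals mark the longest run of pyrimidines within 10 bases of that start. *Malat1* and *Tug1* are added for contrast. *Gas5* has a pair of entries, of which the one that does not overlap *Zbtb37* is shown.
Snhg1 start: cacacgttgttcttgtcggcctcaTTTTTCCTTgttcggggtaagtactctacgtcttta
Snhg12 start: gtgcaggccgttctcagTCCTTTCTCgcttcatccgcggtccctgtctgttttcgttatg
Snhg5 start: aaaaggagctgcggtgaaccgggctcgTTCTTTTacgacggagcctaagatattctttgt
Gas5 start: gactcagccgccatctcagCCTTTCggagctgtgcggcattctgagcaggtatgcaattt
Malat1 start: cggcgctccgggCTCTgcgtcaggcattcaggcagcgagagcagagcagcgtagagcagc
Tug1 start: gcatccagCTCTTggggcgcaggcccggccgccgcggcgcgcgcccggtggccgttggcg

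The windows are chr19:8723467-8723526, chr4:132308658-132308717, chr9:88522858-88522917, chr1:161035146-161035205, chr19:5802633-5802692 and chr11:3648775-3648834 of GRCm38. The longest run had 9 pyrimidines for *Snhg1* and *Snhg12*, 7 for *Snhg5*, 6 for *Gas5*, 5 for *Tug1* and 4 for *Malat1*. Of 32851 promoter windows, 9.55% held a run of at least 9 in this place, 29.2% at least 6 and 63.9% at least 4, so the host starts were pyrimidine-rich but not rare. Under the stricter rule, a C at the annotated start followed by at least 5 pyrimidines, 1.7% of windows and none of the 7 member windows qualified. With at least 4, *Gas5* met it, as did 2.51% of windows. Annotated starts can be some bases off the true start, and *Neat1* had no window in this table.

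Of the hosts, *Snhg1*, *Snhg5* and *Snhg12* had their highest level in S52 and *Gas5* did not. On the log2(FPKM + 1) scale *Snhg12* differed between S52 and S38 by 0.67, *Snhg1* by 0.48, *Snhg5* by 0.31 and *Gas5* by -0.02. Against S44 the differences were 0.73, 0.45, 0.75 and -0.15. *Snhg1* and *Snhg12* kept a similar ratio to each other, 8.43 in S38, 8.96 in S44 and 7.29 in S52. Rescaled to the same sum over all genes, the difference of *Snhg5* between S52 and S38 was 0.02 and that of *Snhg1* 0.18. This scaling is set largely by short noncoding genes, which held 59.9% to 70.3% of the column sums, and it moved the median of all detected genes between S52 and S38 to -0.35.

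All 17 other snoRNA hosts on the list had a row, 4 of them under an older symbol, and 15 were detected, against 48.3% of all genes. S52 was the highest library for 5 of these 15 and the lowest for 7, shares close to the 33.9% and 46.3% of all detected genes. *Zfas1*, the highest at 108 FPKM, measured 84.5, 84.9 and 155 FPKM. *Snhg8*, *Snhg3* and *Snhg6*, at 46.4, 44.2 and 27.4 FPKM in the mean, were all lowest in S52. Among those above 0 in every library *Snhg18* was the most variable, at 5.42, 4.42 and 0.577 FPKM, and *Snhg11* was the lowest on the list, at 0.0861 FPKM. *Snhg9* measured 3.11 FPKM in S38 and was listed at 0 in S44 and S52. The median difference of the 15 between S52 and S38 was -0.19. *Snhg1*, *Snhg5*, *Snhg12* and also *Gas5* (-0.02) lay above the middle of this list.

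A pattern like that of *Snhg1* and *Snhg12* was seen among mRNAs listed as 5′ TOP genes. Of 10 such mRNAs for elongation factors and related proteins, 9 were highest in S52, against 33.9% of all detected genes. The *Snhg1* and *Snhg12* windows shown above did not meet the stricter start rule, and a shared cause was not tested. *Eef1a1*, the elongation factor that brings tRNAs to the ribosome, measured 2593, 2666 and 3913 FPKM. *Hnrnpa1* was the most variable at 1.77-fold and *Eef1d* the lowest at 56.2 FPKM. The list's median difference between S52 and S38 was 0.58, against 0.48 for *Snhg1*, 0.67 for *Snhg12* and -0.02 for *Gas5*. *Snhg1* itself lay nearest to *Rpl23*, a ribosomal protein, with 288, 293 and 374 FPKM (0.074), then to *Klf4*, a transcription factor of quiescent endothelium, with 281, 273 and 361 FPKM (0.083). *Snhg12* lay nearest to the pseudogene *Gm5424* (0.035) and to *Mapre1*, a microtubule end-binding protein (0.088), and *Snhg5* to *Uso1* and *Cdk19* (0.08 each). *Myo10*, an unconventional myosin of filopodia, was the second nearest gene to *Gas5* (0.041).

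**Figure D4:**
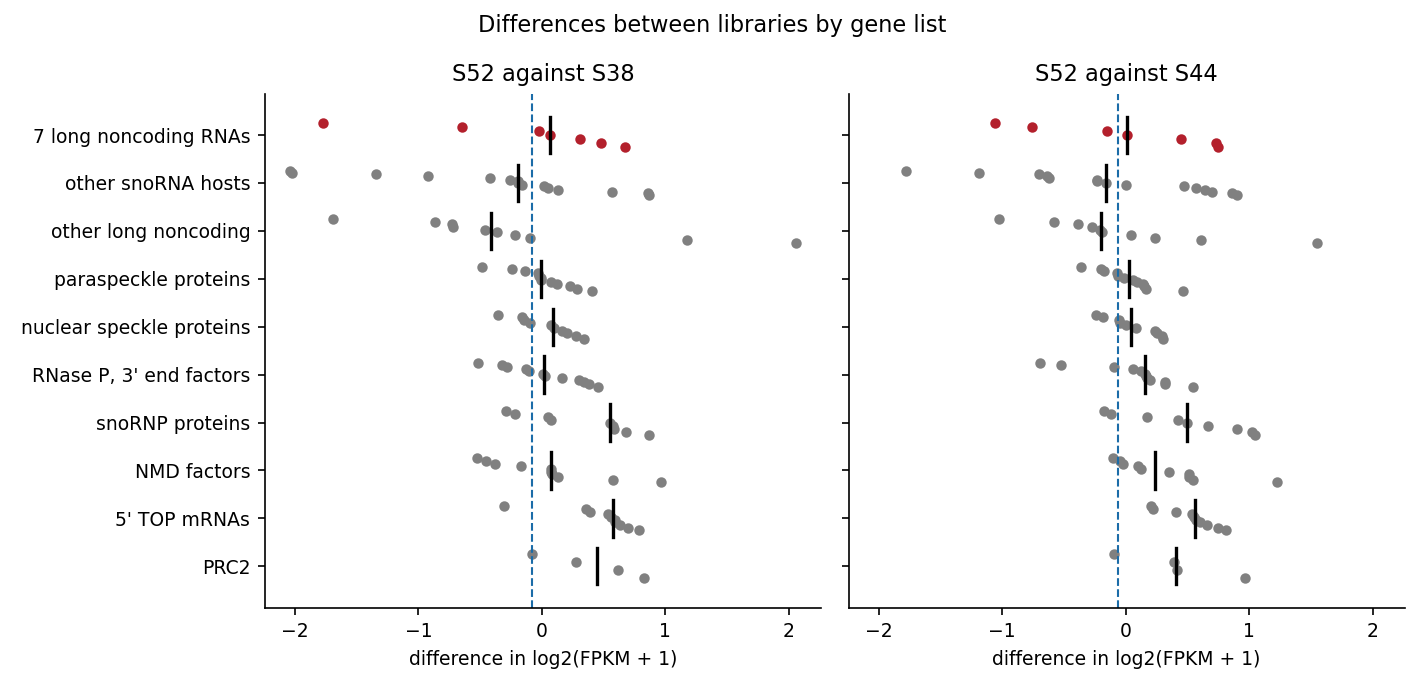
Difference in log2(FPKM + 1) between S52 and S38 (left) and between S52 and S44 (right) for the 7 RNAs (red) and the detected genes of 9 lists (grey). Black bars are medians and the dashed line is the median of all detected genes (-0.08 and -0.06). *Neat1* and *Malat1* lie to the left, *Snhg12*, *Snhg1* and *Snhg5* to the right, near the 5′ TOP mRNAs, the snoRNP proteins and the Polycomb genes.

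Genes for proteins that act on host RNAs and their snoRNAs were measured beside them, also as RNA only. All 9 snoRNP genes were detected, against 48.3% of all genes, with a median of 34.8 FPKM. Of the 9, 5 were highest in S52 and none lowest, against 33.9% and 46.3% of all detected genes. *Nhp2l1*, which binds the kink of box C/D snoRNAs, was the highest at 122 FPKM. *Fbl*, the methyltransferase of these particles, measured 30.7, 23.7 and 50 FPKM, and *Gar1*, of the box H/ACA particles, was the lowest in the mean (9.19 FPKM) and the most variable at 2.2-fold. All 10 nonsense-mediated decay genes were detected, against the same 48.3%, with a median of 12.5 FPKM. *Upf3a* was the highest (19.8 FPKM) and the most variable, at 15.5, 12.7 and 31.2 FPKM, while *Upf1*, the central helicase, stayed at 14.8, 13.5 and 13.0 FPKM. *Smg8* was the lowest at 5.26 FPKM.

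GENCODE places 23 snoRNAs inside the 4 hosts: 9 in *Gas5*, 8 in *Snhg1*, 2 in *Snhg5* and 4 in *Snhg12*. The 9 include an entry that GENCODE types as a snoRNA under the microRNA name *Mir5117*. Only 6 of the 23 have a row. They are shown because their values are the hardest of the whole set to read. In the box C/D snoRNAs (*Snord*), capitals mark TGATGA, the core of the C box, and the last CTGA, the D box. In the box H/ACA snoRNAs (*Snora*), they mark ACA where it stands 3 bases before the 3′ end. All sequences are from GENCODE M21, on the plus strand.
Snord47: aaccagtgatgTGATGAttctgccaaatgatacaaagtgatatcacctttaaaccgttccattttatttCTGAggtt
Snord22: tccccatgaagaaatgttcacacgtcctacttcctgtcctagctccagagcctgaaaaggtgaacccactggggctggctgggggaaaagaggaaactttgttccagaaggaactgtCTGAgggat
Snora16a: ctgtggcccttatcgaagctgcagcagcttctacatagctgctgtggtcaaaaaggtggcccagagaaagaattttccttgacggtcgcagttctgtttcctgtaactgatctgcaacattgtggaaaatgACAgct
Snora44: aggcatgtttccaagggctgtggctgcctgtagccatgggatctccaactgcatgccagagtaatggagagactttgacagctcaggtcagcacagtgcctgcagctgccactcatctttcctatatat
Snora61: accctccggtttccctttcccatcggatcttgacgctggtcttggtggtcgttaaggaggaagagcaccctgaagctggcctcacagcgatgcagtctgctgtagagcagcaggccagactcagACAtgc
Snord99: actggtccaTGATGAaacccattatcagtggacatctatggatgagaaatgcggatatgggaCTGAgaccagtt

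*Snord47* (chr1:161038082-161038158) lies in *Gas5*, *Snord22* (chr19:8725866-8725991) in *Snhg1*, and *Snora16a* (chr4:132309464-132309600), *Snora44* (chr4:132309941-132310069), *Snora61* (chr4:132310240-132310369) and *Snord99* (chr4:132310691-132310764) in *Snhg12*. TGATGA was found in *Snord47* and *Snord99* and not in *Snord22*, and CTGA in all 3. ACA stood before the last 3 bases in *Snora16a* and *Snora61* and not in *Snora44* as annotated. Over 1507 GENCODE snoRNA transcripts, on the annotated strand, 26.1% held TGATGA, 79.5% CTGA and 18.3% ACA in that place. *Snord47* was intronic in 17 *Gas5* transcripts and exonic in 1, and *Snord22* was intronic in 8 *Snhg1* transcripts and exonic in 4.

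Apart from *Snord99*, the snoRNA values spread more between libraries than those of their hosts. *Snord47* measured 9366 FPKM in S38, 79975 in S44 and 47321 in S52, while *Gas5* stayed between 29.5 and 32.8 FPKM. *Snord22* measured 650, 1275 and 420 FPKM, with its lowest value where *Snhg1* was highest. *Snora16a* measured 81.0, 179 and 49.6 FPKM. In these 3 snoRNAs S44 was the highest library, and in *Snord22* and *Snora16a* S52 was the lowest. *Snora44* measured 640 and 342 FPKM and was listed at 0 in S52. *Snora61* was listed at 0 in S38 and measured 22543 FPKM in S44 and 143126 in S52. *Snord99* was listed at 0 in all 3 libraries. Their RefSeq lengths are 56 to 136 bases, shorter than the 150 to 180 bases that had to be taken off transcript lengths to make low values whole fragments, so a few fragments can set such a value, and no depth can be given for it. Poly(A) selection also leaves out most mature snoRNAs, which have no tail.

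**Figure D5:**
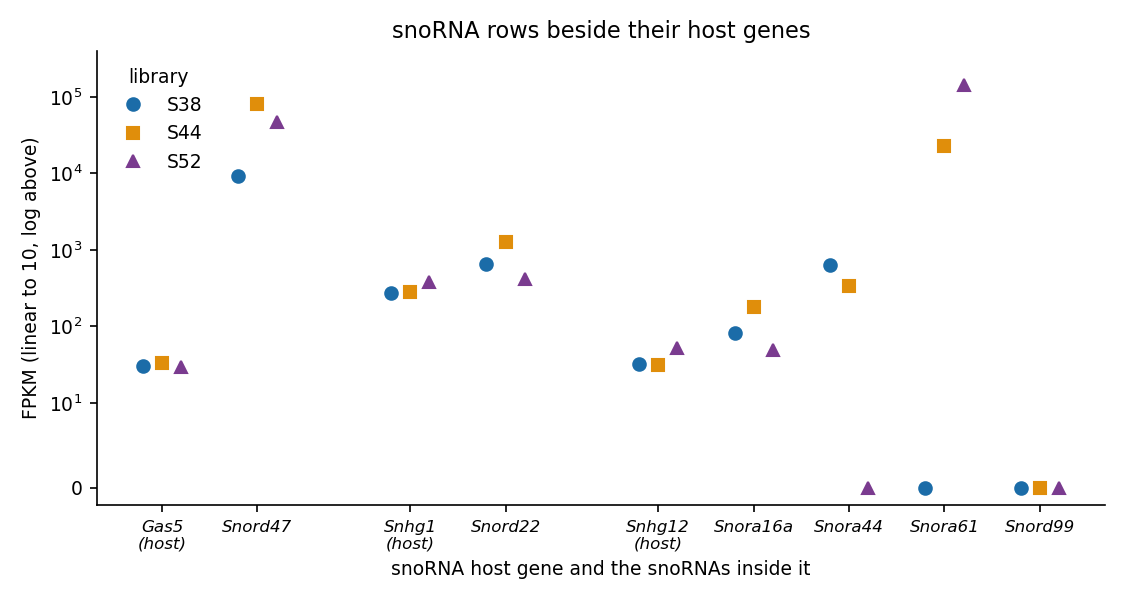
FPKM in each library (axis linear up to 10 and logarithmic above) of the hosts *Gas5*, *Snhg1* and *Snhg12* and of the 6 snoRNAs inside them that have a row. The hosts differ less than 2-fold between libraries, while *Snora61* runs from 0 to 143126 FPKM.

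*Snhg1* starts 106 bases from *Slc3a2* on the opposite strand, the heavy chain shared by several amino acid transporters. The stretch between them is printed here as the shared upstream region of the most abundant member, on the plus strand at chr19:8723370-8723536 (GRCm38). Capitals mark the 105 bases between the annotated starts, and the lower case letters are the beginning of *Snhg1*.
Slc3a2-Snhg1: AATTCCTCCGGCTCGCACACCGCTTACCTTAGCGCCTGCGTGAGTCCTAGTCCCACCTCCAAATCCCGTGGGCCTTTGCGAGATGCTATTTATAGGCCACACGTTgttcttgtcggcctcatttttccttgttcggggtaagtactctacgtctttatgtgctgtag

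The GC content of the 105 bases was 56.2%. *Slc3a2* measured 252, 261 and 286 FPKM (266 ± 17.8), a level close to that of *Snhg1* and also highest in S52. *Snhg1* was 1.09 times as high as *Slc3a2* in S38, 1.07 times in S44 and 1.34 times in S52. The neighbours of the other members were all lower than the member itself. *Zbtb37*, which overlaps *Gas5* on the opposite strand, measured 1.36, 1.61 and 1.72 FPKM. *Morc2a*, which overlaps *Tug1*, measured 9.66, 7.98 and 12.9 FPKM. Since the libraries carry no strand information, reads from the overlapping parts cannot be assigned. The nearest opposite starts with a row were farther off for *Snhg12* (*Rab42*, 0.154 FPKM, 5238 bases), *Snhg5* (*Zfp949*, 2.04 FPKM, 25091 bases), *Neat1* (*Slc25a45*, 20.7 FPKM, 32330 bases) and *Malat1* (*Ltbp3*, 6.38 FPKM, 61768 bases). Closer annotated neighbours without a row were *Gm37376*, which overlaps *Malat1*, and *Frmd8os*, 145 bases from the *Neat1* start.

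Stretches as long as a read, 51 bases, were mostly particular to each gene. The share of such stretches of the longest GENCODE transcript that occur in transcripts of another gene was 6.33% for *Malat1*, 1.33% for *Neat1*, 5.39% for *Gas5*, 7.99% for *Snhg1*, 1.02% for *Snhg5*, 5.85% for *Snhg12* and 6.72% for *Tug1*. The genes sharing them included snoRNAs inside *Snhg1*, *Gas5* and *Snhg12* and, for *Malat1*, the overlapping *Gm37376*. The longest transcripts have 2556 bases for *Gas5*, 2728 for *Snhg1* and 1538 for *Snhg12*, more than the longest basic ones given above. The shares may therefore not hold for the spliced host RNAs.

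*Tug1* lies on the minus strand at chr11:3639785-3649673, with basic transcripts of 4720 and 6719 bases. It differed between S52 and S38 by 0.06 and between S52 and S44 by 0.01 on the log2(FPKM + 1) scale, and by 1.33-fold at most when the columns were rescaled to the same sum over all genes. Its nearest genes were *Zc3h7b* (19.9, 20.8 and 20.4 FPKM) and *Clec12b* (20.2, 20.6 and 20.1 FPKM). Set against *Tug1*, *Neat1* was 3.93 times as high in S38, 2.29 times in S44 and 1.06 times in S52, and *Snhg1* 14, 13.7 and 18.6 times. The 4 genes of Polycomb repressive complex 2, the protein partner most often named for *Tug1*, were all detected, against 48.3% of all genes. Of the 4, 3 were highest in S52, against 33.9% of all detected genes. Their median difference was 0.44 between S52 and S38 and 0.41 between S52 and S44, close to *Snhg1* (0.48 and 0.45). *Ezh1* was the highest at 25.0 FPKM, and *Ezh2*, the methyltransferase of dividing cells, the lowest and most variable, at 4.36, 3.85 and 8.49 FPKM.

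Among 22 other well-known long noncoding RNAs, 21 had a row and 10 were detected. That share, 47.6%, was near the 48.3% of all genes, while 310 of the 2064 RefSeq long noncoding genes were detected. The median over all 21 was 0.986 FPKM, against 20.2 FPKM for the lowest of the 7. Since the 7 were chosen with earlier results of these data known, this gap is a description only. *Fendrr*, *Hotairm1* and *Oip5os1* stood above 20.2 FPKM in the mean. *Fendrr* was the highest. *Oip5os1*, listed under an older symbol, measured 27.4, 24.8 and 25.6 FPKM and *Hotairm1* 73.3, 53.0 and 43.8 FPKM. *H19*, the imprinted fetal RNA, was the most variable of those above 0 in every library, at 2.89, 0.0241 and 0.207 FPKM, and *Miat* was listed at 0 in all 3 libraries. Over all 9 lists, 92 of 106 genes with a row (86.8%) reached 1 FPKM, against 48.3% of all genes in the table.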

How the data were processed

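Poly(A)-selected, unstranded paired reads of 51 bp were measured in 3 libraries of sorted adult lung ECs. The deposited values are FPKM, 1 per gene symbol and library (mm10), normalized by the authors to transcript length and library size. The submitters' processing notes name bcl2fastq 2.17, FastQC 0.11.5, Trimmomatic 0.36, TopHat2 2.1.0 and Cufflinks 2.2.1. The annotation and the exact step behind the FPKM are not given in the sources used here.

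Values were used as deposited, with pandas 2.3.3 on Python 3.11.15. With 1 group of 3 libraries no test was made: means, SDs, ranks, folds and differences of log2(FPKM + 1), a pseudocount of 1, are descriptions. Detection meant a mean over the 3 libraries of 1 FPKM or more. Depth was estimated from 5901 genes with a single transcript, in which 74.9% to 78.4% of low values came within 0.15 of whole fragments. Values simulated under the fitted model, with depths among those searched, returned the known depths. That check cannot show that the model holds for the real values. Limits and floors cover counting error only. RefSeq biotypes were found for 99.5% of symbols, positions are those of GENCODE M21, and list genes were matched also by older symbols. Promoter windows matched 6 of the 7 members.

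The 7 members and the lists (9 pathway lists and 8 marker lists) were chosen with earlier results of these data known. Named genes are the members, snoRNAs inside hosts, the 2 nearest genes of each member, neighbours, the 10 highest long noncoding genes and the highest, lowest and most variable gene of each list. Further list genes named for their known role were chosen after their values were seen. Not every gene named by these rules is reported here. Alternatives were 3 scalings, each library left out, other pseudocounts, thresholds and run lengths. A run near the start and the GENCODE gene types were added after seeing the data.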

Additional observations from a re-analysis of the deposited data

How the results depend on the processing

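With each library left out, the summed level of the 7 RNAs ran from 533 to 568 FPKM. The mean ratio of the nuclear pair to the hosts ran from 0.274 to 0.424. Under the 3 scalings the sum was 552 to 563 FPKM, while the ratio cannot change with scaling. Leaving out 1 of 3 libraries cannot move a mean by 1 SD, so these ranges are descriptions and no check of stability. The number of the 7 with more than a 2-fold difference between libraries was 1 under the 3 scalings and both other pseudocounts, and 0 to 1 with each library left out. It was 0 without S52, where the share of all detected genes past 2-fold also dropped to 5.06%. That share was 8.74% for genes of at least 10 FPKM and 34.5% for genes of at least 0.1 FPKM. The rank of *Tug1* among long noncoding genes stayed between 26 and 28, with 28 by GENCODE gene types. The 14 nearest genes were the same with a pseudocount of 0.1. Of the list genes, 96.2% reached 0.1 FPKM and 62.3% reached 10 FPKM, against 62.2% and 25.7% of all genes. The share of promoter windows with a C at the start followed by pyrimidines was 2.51% for at least 4 and 0.779% for at least 7, and 29.2% held a run of at least 6 near the start. These last values differ because the thresholds do.

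No paired analysis was possible because the libraries form 1 group. With 3 libraries, of which S52 differs in markers of other cells, no value here has a test. FPKM carries no counts, so the precision of the snoRNA values is unknown.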
